A study of Schizosaccharomyces pombe with 9 samples.

Results

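The mating pheromone and agglutinin genes described here are 8 genes of fission yeast: among them mfm1 and mfm2 for precursors of the M-factor pheromone, mam1 for its exporter and mam4 for the methyltransferase that matures it. The others are map2, the gene for the P-factor pheromone precursor, the agglutinin genes mam3 (M cells) and map4 (P cells), and ste7, an arrestin family gene needed for mating. The genes were picked with earlier results of these data known, and their probe sets were then found by gene symbol in the annotation, where all 8 had one. They were measured by 9 probe sets, since mfm1 had 2, among 2937 probe sets and 2899 singly named genes of Schizosaccharomyces pombe. Their locus tags were SPAPB8E5.05 (mfm1), SPAC513.03 (mfm2), SPBC25B2.02C (mam1), SPAC10F6.12C (mam4), SPCC1795.06 (map2), SPAP11E10.02C (mam3), SPBC21D10.06C (map4) and SPAC23E2.03C (ste7).

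RNA came from 3 strains with 3 Affymetrix arrays each, labelled as biological replicates 1 to 3. WT was SPQ-01, SD1 was SPQ-01 with rpl32-1 deleted, and SD2 was SPQ-01 with rpl32-2 deleted; both deleted genes encode ribosomal protein L32. All cultures were harvested at an OD600 of 5.0 after growth in rich medium (YEPD, 30 °C), a stage that the labels call log phase, and no nitrogen starvation or mating partner was named. The series concerns flocculation without mating. The labels gave neither the mating type of SPQ-01, nor the marker used for the deletions, nor whether a deletion strain was 1 clone.

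Fission yeast cells mate when nitrogen runs out and a cell of the opposite mating type is near. M cells release the lipid-modified peptide M-factor through the transporter Mam1 and P cells release the peptide P-factor, and each type carries the receptor for the other's pheromone. The signal passes through a G protein, Ras1 and a MAP kinase cascade, and the transcription factor Ste11 switches on most genes of the programme. Agglutinins then hold the partners together, and this sexual clumping is distinct from the flocculation of cells that are not mating.

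Values are log2 expression values, so a difference of 1 is a 2-fold change. A background level was taken from the named probe sets on the same arrays that matched no S. pombe gene, counted as S. cerevisiae. It was the 95th percentile of their values and averaged 5.17. The label of each deletion was borne out by its gene: rpl3201 lay between 4.17 and 6.04 in SD1 and at 13.88 or above elsewhere, and rpl3202 between 7.25 and 8.89 in SD2 and at 14.11 or above elsewhere. As a sign of RNA quality, the log2 ratio of 3' to 5' probe sets for 18S rRNA averaged -1.17 ± 0.32 among the WT arrays (SD, n = 3), -0.37 ± 0.055 among those of SD1 and -0.43 ± 0.13 among those of SD2. The ratio for ACT1 mRNA averaged 0.30 ± 0.083, 0.30 ± 0.032 and 0.33 ± 0.050. The rRNA ratio moved with the strain, and its part in the results that follow was not tested. Arrays with the same replicate number shared exactly equal values over all probe sets, against 0 to 4 for other pairs. The count per pair was 3934 to 4218 in number 1, 74 to 80 in number 2 and 168 to 353 in number 3. Differences are therefore also given within each number.

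In both deletions mam1, mfm1, mam3 and ste7 fell and the P-factor gene map2 rose, while mfm2 passed the test in SD1 and not in SD2. In SD1 against WT, mam1 was 3.16-fold lower, mfm2 2.55-fold, mfm1 2.41-fold, ste7 2.17-fold and mam3 1.5-fold lower, while map2 was 2.16-fold higher. In SD2 against WT, ste7 was 2.78-fold lower, mam1 2.17-fold, mfm1 1.59-fold and mam3 1.58-fold lower, and map2 was 1.95-fold higher. The maturation gene mam4 and the P agglutinin gene map4 passed the test in neither deletion. By limma, with p-values adjusted after Benjamini and Hochberg over all S. pombe probe sets, 1 of the 8 genes rose and 5 fell in SD1, beside 43.2% of all probe sets called (19.5% higher and 23.7% lower). In SD2 1 rose and 4 fell, beside 31.9% of all probe sets called (17.6% higher and 14.3% lower). The 3 arrays of a deletion did not overlap those of WT for 6 of the 8 genes in SD1, beside 52.0% of all probe sets, and for 6 in SD2, beside 43.2%. With the replicate number as a block (the replicate block), the share of all probe sets called was 59.8% in SD1 and 49.6% in SD2. The median log2 change of the 8 was -0.85 in SD1 and -0.62 in SD2, beside medians over all probe sets of -0.033 and 0.008. Both comparisons share the WT arrays. In bulk RNA, fewer cells expressing a gene and less RNA per cell cannot be told apart.

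**Figure D1:**
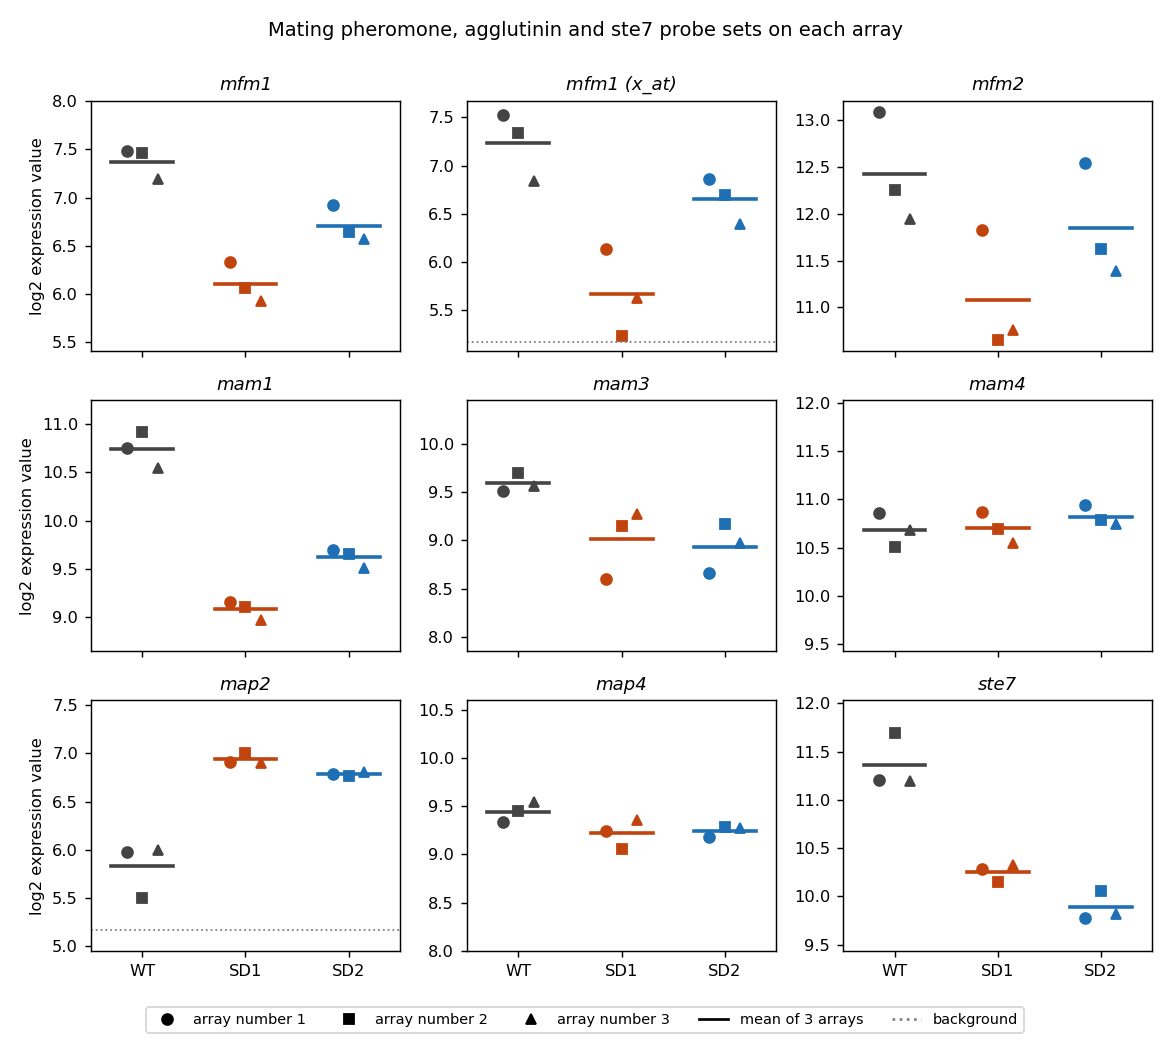
Log2 expression value of each of the 9 probe sets (vertical axis; panels span at least 2.6 units) on the 3 arrays of WT, SD1 and SD2, with the array number as the marker shape, the mean of 3 arrays as a bar and the background of 5.17 as a dotted line where it falls in the panel. The WT arrays lie above all deletion arrays for mam1, mam3, ste7 and the plain mfm1 probe set. They lie below them for map2, and mam4 overlaps throughout.

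The exporter gene mam1 had the smallest adjusted p of the 8 genes in SD1. Its values were 10.75, 10.92 and 10.54 in WT, 9.16, 9.11 and 8.97 in SD1, and 9.70, 9.65 and 9.51 in SD2. The 3 strains did not overlap, with WT highest, SD2 between and SD1 lowest. It fell by 1.66 ± 0.11 (SE) in SD1 (n = 3 each, limma adjusted p = 6.7e-05) and by 1.12 ± 0.11 in SD2 (adjusted p = 0.000447). Within array numbers 1, 2 and 3 the change was -1.59, -1.82 and -1.57 in SD1 and -1.05, -1.28 and -1.03 in SD2. Mam1 is an ABC transporter that carries M-factor out of the cell, as Ste6 carries a-factor in S. cerevisiae.

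The M-factor precursor gene mfm1 followed the same order. On its plain probe set the values were 7.48, 7.46 and 7.19 in WT, 6.33, 6.06 and 5.93 in SD1, and 6.92, 6.64 and 6.57 in SD2, again with no overlap between strains. It fell by 1.27 ± 0.14 in SD1 (adjusted p = 0.00023) and by 0.67 ± 0.14 in SD2 (adjusted p = 0.00714), and within numbers the changes ran from -1.40 to -1.15 and from -0.82 to -0.56. With quantile normalization the SD2 call ended at an adjusted p of 0.064, with a change of -0.64. Its second probe set is of the kind marked x, which Affymetrix uses where probes may also bind related transcripts, and the M-factor genes form such a family. That probe set read 7.52, 7.34 and 6.84 in WT, 6.14, 5.23 and 5.63 in SD1, and 6.86, 6.70 and 6.4 in SD2. It was above background on 8 of the 9 arrays, and WT and SD2 overlapped. Its change was -1.57 ± 0.25 in SD1 (adjusted p = 0.0014) and -0.58 ± 0.25 in SD2 (adjusted p = 0.115), the latter called at 0.0404 with the replicate block.

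The other M-factor precursor gene of the 8, mfm2, varied more between arrays of a strain than between some strains. It read 13.09, 12.26 and 11.95 in WT, 11.83, 10.65 and 10.76 in SD1, and 12.54, 11.62 and 11.39 in SD2. Array 1 was the highest of each strain, so SD2 overlapped both other strains, whereas all SD1 values lay below all WT values. The fall in SD1 was 1.35 ± 0.43 (adjusted p = 0.0316), and the change in SD2 was -0.58 ± 0.43 (adjusted p = 0.339). Within numbers it was -1.26, -1.60 and -1.19 in SD1 and -0.55, -0.64 and -0.56 in SD2. With the replicate block its standard error dropped to 0.086, and the adjusted p was 0.000155 in SD1 and 0.00325 in SD2. Without the block the SD1 call ended when WT array 1 or 2 or SD1 array 2 or 3 was left out, at adjusted p-values up to 0.103 and changes of -1.02, -1.44, -1.14 and -1.19, and it ended at 0.0502 when all probe sets of the array were tested.

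The methyltransferase gene mam4, whose product adds the methyl group to the farnesylated cysteine of M-factor, did not pass the test. Its values were 10.86, 10.51 and 10.68 in WT, 10.87, 10.69 and 10.55 in SD1, and 10.94, 10.79 and 10.74 in SD2, and all strains overlapped. The difference from WT was 0.02 in SD1 (95% interval -0.24 to 0.28, adjusted p = 0.906) and 0.14 in SD2 (-0.12 to 0.40, adjusted p = 0.393). Within array number 2 alone the difference reached 0.18 and 0.28. These intervals leave out falls of the size measured for mam1 and mfm1.

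The P-factor precursor gene map2 moved in the opposite direction to the M-factor genes. It read 5.98, 5.50 and 6.0 in WT, close to the background of 5.13 to 5.26 but above it on every array. In SD1 it read 6.91, 7.0 and 6.90, and in SD2 6.79, 6.77 and 6.81, so both deletions lay above WT, SD1 the higher of them, and the spread within each deletion was small (SD 0.057 and 0.021). The rise was 1.11 ± 0.13 in SD1 (adjusted p = 0.000261) and 0.96 ± 0.13 in SD2 (adjusted p = 0.00106). Within numbers it was 0.93, 1.5 and 0.91 in SD1 and 0.82, 1.26 and 0.81 in SD2. The widest difference was in number 2, whose WT array had the lowest map2 value of all.

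Of the agglutinins, which bind cells of opposite type to each other, the M protein's gene mam3 fell and the P protein's gene map4 did not pass. The mam3 values were 9.51, 9.70 and 9.56 in WT, 8.6, 9.15 and 9.27 in SD1, and 8.66, 9.17 and 8.97 in SD2. Both deletions lay below WT and overlapped each other, with array 1 the lowest of each deletion. It fell by 0.58 ± 0.19 in SD1 (adjusted p = 0.0322) and by 0.66 ± 0.19 in SD2 (adjusted p = 0.0257), and within numbers 1, 2 and 3 by 0.90, 0.55 and 0.30 in SD1 and 0.84, 0.54 and 0.59 in SD2. Single arrays decided both calls. In SD1 the call ended with any of WT arrays 2 and 3 and SD1 array 1 left out, at changes of -0.53, -0.60 and -0.38. In SD2 it ended with any of WT arrays 2 and 3 and SD2 arrays 1 and 3 left out, at -0.60, -0.67, -0.52 and -0.68. For map4 the values were 9.33, 9.45 and 9.54 in WT, 9.24, 9.05 and 9.36 in SD1, and 9.18, 9.28 and 9.27 in SD2. WT and SD2 did not overlap, WT and SD1 did, and the differences were -0.23 ± 0.094 (adjusted p = 0.0826) and -0.20 ± 0.094 (adjusted p = 0.143). With the replicate block the SD1 difference of map4 was called at 0.0388.

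The arrestin family gene ste7 was the member with the largest fitted fall in SD2. It read 11.21, 11.69 and 11.19 in WT, 10.28, 10.15 and 10.32 in SD1, and 9.77, 10.06 and 9.82 in SD2. No strains overlapped, but the order differed from that of the M-factor genes, with SD2 lowest. It fell by 1.12 ± 0.14 in SD1 (adjusted p = 0.000455) and by 1.48 ± 0.14 in SD2 (adjusted p = 0.000447). Within numbers the change was -0.93, -1.54 and -0.88 in SD1 and -1.44, -1.63 and -1.37 in SD2.

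**Figure D2:**
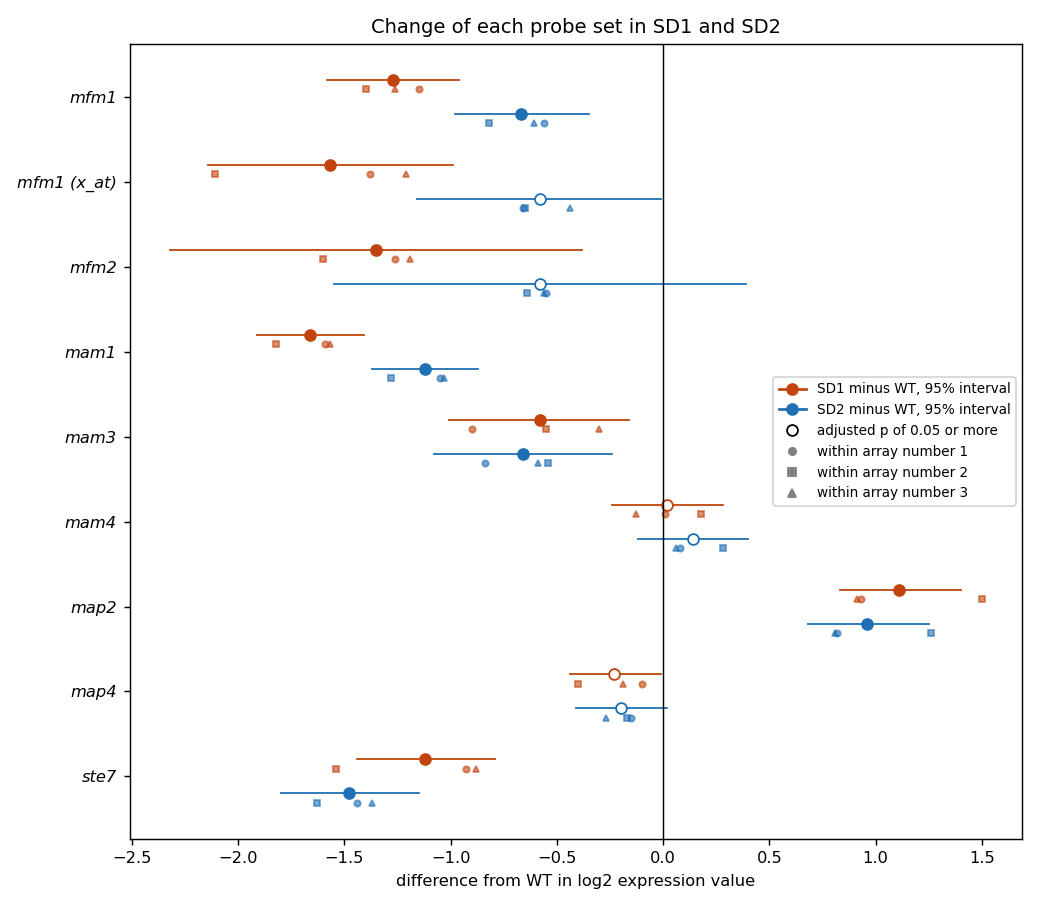
Difference from WT in log2 expression value (horizontal axis) for each probe set, in SD1 (orange) and SD2 (blue), with the limma 95% interval, open circles where the adjusted p was 0.05 or more, and small markers for the difference within each array number. The 3 small markers of mam1, mfm1, mfm2, mam3 and ste7 all lie below 0 in both deletions. So do those of map4, which passed the test in neither deletion, and those of map2 all lie above 0.

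The mean of both deletions was also compared with WT, which uses all 9 arrays for 1 value per gene. By this measure mam1 fell by 1.39 ± 0.094, ste7 by 1.3 ± 0.12, mfm1 by 0.97 ± 0.12 and mam3 by 0.62 ± 0.16, and map2 rose by 1.04 ± 0.11 (limma adjusted p from 5.37e-05 for mam1 to 0.0131 for mam3). That made 1 of 8 genes higher and 4 lower, beside 44.7% of all probe sets called (21.3% higher and 23.4% lower, and 59.7% in all with the replicate block). The mam3 call ended without WT array 2 (-0.56, adjusted p = 0.0601). Of the remaining genes mfm2 was at -0.97 ± 0.37 (adjusted p = 0.0619, and 0.000251 with the replicate block), map4 at -0.21 ± 0.082 (0.0626, and 0.0293 with the block) and mam4 at 0.08 ± 0.10 (0.554).

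The deletions were then compared with each other, which asks whether loss of either L32 gene left the same levels. No gene of the 8 passed by limma, beside 0.17% of all probe sets, and 3 had an unadjusted p under 0.05 (mfm1, mam1 and ste7). The arrays of SD1 and SD2 did not overlap for 4 genes, beside 18.3% of all probe sets. The M-factor genes were on the higher side in SD2: mam1 by 0.54 ± 0.11 (adjusted p = 0.2), mfm1 by 0.60 ± 0.14 (0.208) and mfm2 by 0.77 ± 0.43 (0.543). The differences of mam1 were 0.55, 0.54 and 0.54 within the 3 numbers, those of mfm1 0.59, 0.58 and 0.65, and those of mfm2 0.71, 0.97 and 0.63. With the replicate block these 3 genes passed at adjusted p-values of 0.0321 (mam1), 0.0237 (mfm1) and 0.0307 (mfm2), beside 0.545% of all probe sets called higher by that fit. The second mfm1 probe set was at 0.99 ± 0.25, with 0.264 without the block and 0.0581 with it.

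The other members differed less or in the opposite direction between the deletions. For ste7 SD2 minus SD1 was -0.36 ± 0.14 (adjusted p = 0.404, and 0.177 with the block), at -0.51, -0.08 and -0.49 within the numbers. For map2 it was -0.15 (95% interval -0.44 to 0.14), for mam3 -0.07 (-0.50 to 0.35), for mam4 0.12 (-0.14 to 0.38) and for map4 0.03 (-0.19 to 0.24). The mam3 value turned to 0.06 without SD1 array 3 or SD2 array 1, and the map4 value turned to -0.01 with median centring or quantile normalization and to -0.05 without SD1 array 2.

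**Figure D3:**
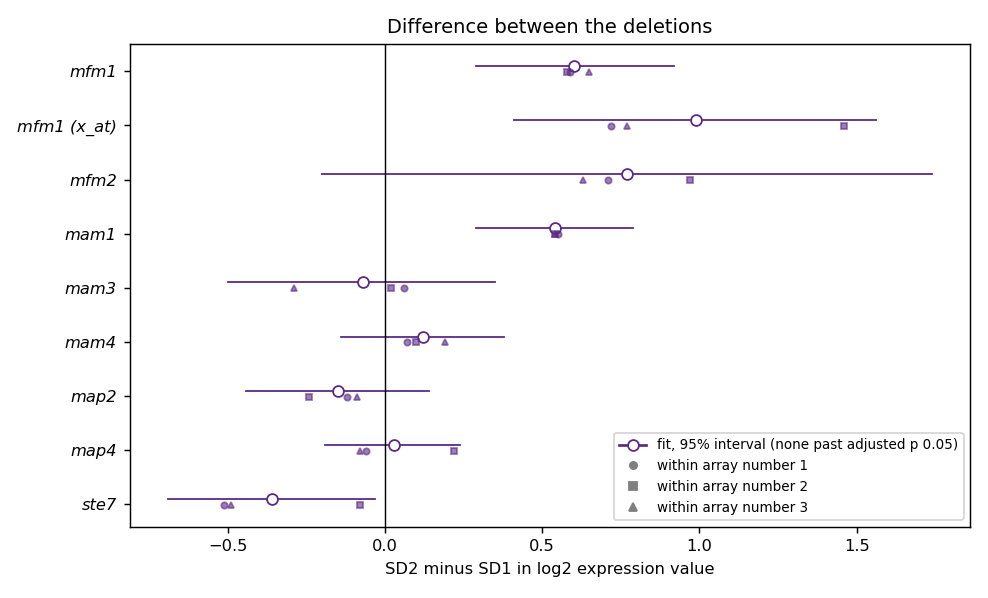
SD2 minus SD1 in log2 expression value (horizontal axis) for each probe set, with the limma 95% interval and small markers for the difference within each array number. The 3 markers of mam1 lie between 0.54 and 0.55 and those of ste7 between -0.51 and -0.08, and no probe set passed without the replicate block.

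Further genes of pheromone production and breakdown were read from a list of 13, of which 11 were measured, 5 of them among the 8 genes above (mfm1, mfm2, mam1, mam4 and map2). In SD1 1 rose and 6 fell, beside 19.5% of all probe sets higher and 23.7% lower. In SD2 1 rose and 4 fell, beside 17.6% and 14.3%. The medians were -0.53 and -0.19. The calls on map2, mfm1 and mam1 in both deletions, and on mfm2 in SD1, are those already given. The gene mfm3, a further M-factor precursor gene, read 7.09, 6.51 and 6.68 in WT, 6.20, 6.31 and 5.74 in SD1, and 7.01, 6.64 and 6.84 in SD2 on its plain probe set. It fell by 0.68 ± 0.19 in SD1 (adjusted p = 0.0195), a call that ended without WT array 1 or SD1 array 3, and was at 0.07 ± 0.19 in SD2 (adjusted p = 0.816). SD1 lay below both other strains, which overlapped. Its x-marked probe set gave -0.72 ± 0.24 (0.0357), lost on leaving out any of 4 single arrays, and -0.19 ± 0.24 (0.585). The farnesyltransferase subunit gene cpp1, whose enzyme attaches the lipid of M-factor, fell by 0.61 ± 0.097 in SD1 (adjusted p = 0.00124) and by 0.36 ± 0.097 in SD2 (0.0207). The protease gene sxa1 fell by 0.53 ± 0.080 (0.00096) and 0.27 ± 0.080 (0.0331), and sxa2, the gene of the carboxypeptidase that degrades P-factor, was at -0.46 ± 0.23 (0.142) and -0.18 ± 0.23 (0.583). The SD2 calls on cpp1 and sxa1 were each lost on leaving out single arrays, 3 for cpp1 and 6 for sxa1, with changes from -0.44 to -0.31 and from -0.32 to -0.21.

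Genes of the receptors and the response path were called in both directions. Of 18 genes, all measured, 4 rose and 5 fell in SD1, beside 19.5% of all probe sets higher and 23.7% lower, and 5 rose and 3 fell in SD2, beside 17.6% and 14.3%. The medians were -0.03 and 0.00, and the counts show nothing particular to the list. The P-factor receptor gene mam2, used by M cells, read 8.59, 8.22 and 8.43 in WT, 7.51, 7.96 and 7.36 in SD1, and 8.17, 8.06 and 8.11 in SD2. It fell by 0.81 ± 0.16 in SD1 (adjusted p = 0.0035) and was at -0.30 ± 0.16 in SD2 (0.178). The M-factor receptor gene map3, used by P cells, was at -0.00 ± 0.12 and 0.06 ± 0.12, with intervals of -0.28 to 0.27 and -0.21 to 0.34. The MAP kinase kinase kinase gene byr2 fell by 1.09 ± 0.13 (0.000327) and 0.93 ± 0.13 (0.00124). The Ras1 exchange factor gene ste6 fell by 0.96 ± 0.16 (0.0018) and 0.58 ± 0.16 (0.0256), and the G protein regulator gene rgs1 fell by 0.89 ± 0.22 in SD1 (0.0116) and was at -0.60 ± 0.22 in SD2 (0.0695). The SD2 call on ste6 was lost on leaving out any of 4 single arrays (-0.72 to -0.48 over all 9).

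On the higher side of that list, the phosphatase gene pmp1 rose by 1.02 ± 0.16 in SD1 (adjusted p = 0.0011) and 0.70 ± 0.16 in SD2 (0.0103); its product is known to act on the MAP kinase of the cell integrity pathway. The gene of the GTPase Ras1 rose by 0.58 ± 0.089 (ras1, 0.00107) and 0.49 ± 0.089 (0.00434). The remaining genes called higher in both deletions, named after their values were seen, were the MAP kinase kinase gene byr1 (0.36 ± 0.062 and 0.50 ± 0.062) and the kinase gene shk1 (0.26 ± 0.082 and 0.28 ± 0.082, each call lost on leaving out any of 4 single arrays).

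**Figure D4:**
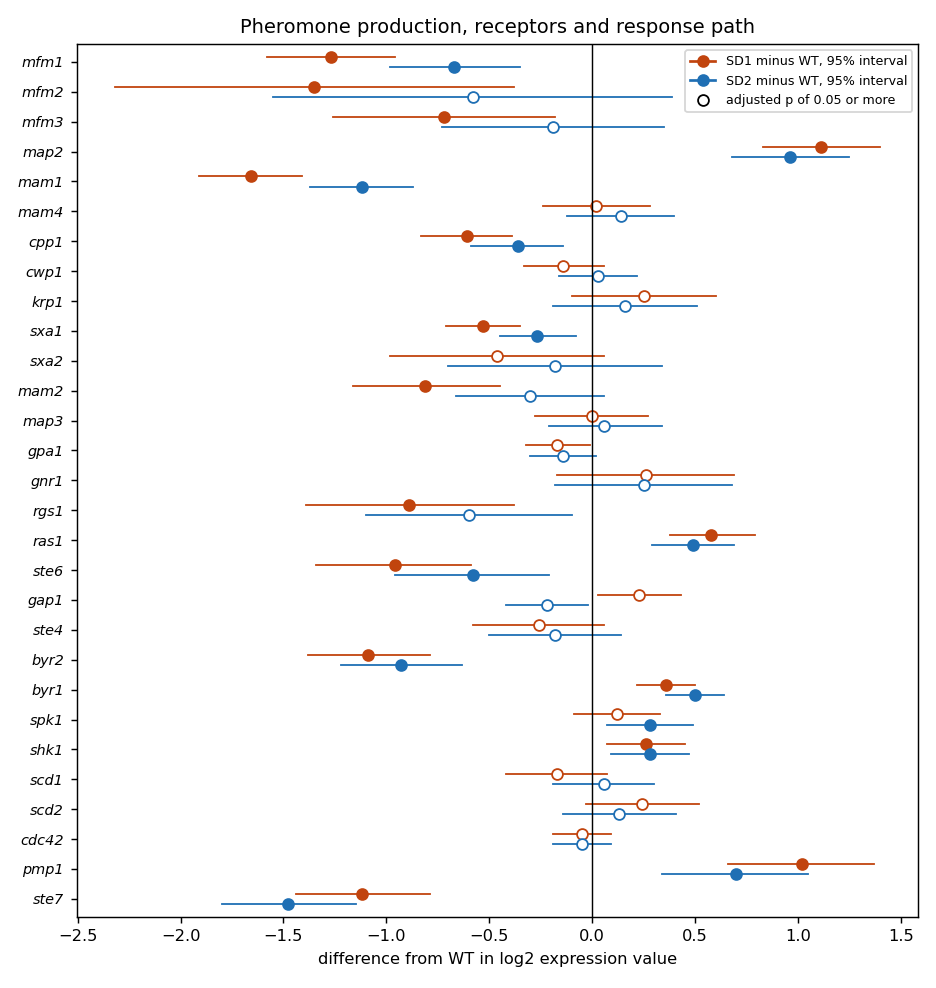
Difference from WT in log2 expression value (horizontal axis) in SD1 (orange) and SD2 (blue) for every measured gene of pheromone production, breakdown, reception and response, with limma 95% intervals and open circles where the adjusted p was 0.05 or more. The values run from -1.66 for mam1 in SD1 to 1.11 for map2 in SD1, and byr2, ste6 and ste7 lie below 0 in both deletions.

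Of 37 listed regulators of sexual differentiation 26 were measured, and 4 rose and 8 fell in SD1 and 3 rose and 6 fell in SD2 (medians -0.16 and -0.13). Called shares over all probe sets were 43.2% and 31.9%, so these counts lie near the background too. The genes of the mating-type locus were not analysed here. The master regulator gene ste11 read 10.61, 11.08 and 11.20 in WT, 11.35, 11.61 and 11.88 in SD1, and 11.04, 11.56 and 11.39 in SD2. It rose by 0.65 ± 0.20 in SD1 (adjusted p = 0.0299) and was at 0.37 ± 0.20 in SD2 (0.201, and 0.0172 with the replicate block), and the SD1 call ended without WT array 1 or 2 or SD1 array 2 or 3 (0.47 to 0.78 over all 9 left out in turn). Between the deletions ste11 was at -0.28 ± 0.20 in SD2 minus SD1 (adjusted p = 0.69), with overlapping arrays. Of the 6 measured genes on the list that belong to cAMP signalling, which restrains ste11 in fed cells, 3 fell in both deletions: pka1, the protein kinase A catalytic subunit gene, by 1.28 ± 0.13 and 1.17 ± 0.13, the adenylate cyclase gene cyr1 by 0.90 ± 0.11 and 0.64 ± 0.11, and the regulatory subunit gene cgs1 by 0.63 ± 0.20 and 0.80 ± 0.20. Of the others, grouped and named after their values were seen, the G protein gene gpa2 rose by 0.50 ± 0.16 in SD1 (adjusted p = 0.0325, lost on leaving out any of 4 single arrays) and was at 0.15 ± 0.16 in SD2 (0.517). The receptor gene git3 was at 0.19 ± 0.21 and -0.22 ± 0.21 and the phosphodiesterase gene cgs2 at 0.02 ± 0.24 and -0.19 ± 0.24, and neither passed. The genes of the transcription factors Atf1 and Rst2 also fell, atf1 by 1.16 ± 0.14 and 1.04 ± 0.14 and rst2 by 0.53 ± 0.098 and 0.59 ± 0.098. The P-cell regulator gene map1 was at -0.18 ± 0.14 and -0.02 ± 0.14 and did not pass (adjusted p = 0.327 and 0.92). The calls on cgs1 were lost without WT array 2 in both comparisons, without WT array 3 or SD1 array 1 or 3 in SD1, and without SD2 array 2 in SD2. Its change ran from -0.80 to -0.46 in SD1 and from -0.97 to -0.63 in SD2 with single arrays left out.

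Of 18 genes of agglutination, cell fusion and karyogamy 15 were measured, with 1 higher and 5 lower in SD1 and 0 higher and 3 lower in SD2, beside 43.2% and 31.9% of all probe sets called. The formin gene fus1, which drives actin assembly at the fusion site, read 6.96, 8.06 and 7.30 in WT, 6.28, 6.35 and 6.52 in SD1, and 6.43, 6.47 and 6.73 in SD2. Both deletions lay below WT, and WT array 2 was the highest of all. It fell by 1.06 ± 0.24 in SD1 (adjusted p = 0.00819) and by 0.90 ± 0.24 in SD2 (0.0227), at -0.67, -1.71 and -0.79 and at -0.53, -1.59 and -0.57 within the numbers, and the SD2 call ended without SD2 array 1 or 2 (-1.14 to -0.59 over all 9 left out in turn). The type V myosin genes fell too, myo51 by 0.42 ± 0.072 in SD1, with -0.21 ± 0.072 in SD2 (0.0515, and 0.00702 with the replicate block). The fall of myo52 was 0.40 ± 0.079 and 0.25 ± 0.079, the last lost on leaving out any of 7 single arrays. In SD1 kms1 (-0.53 ± 0.18) and tht2 (0.54 ± 0.17) were also called, at -0.24 ± 0.18 and 0.20 ± 0.17 in SD2. The kms1 call was lost on leaving out any of 8 single arrays and the tht2 call any of 5, and tht2 was above background on 2 of 9 arrays.

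**Figure D5:**
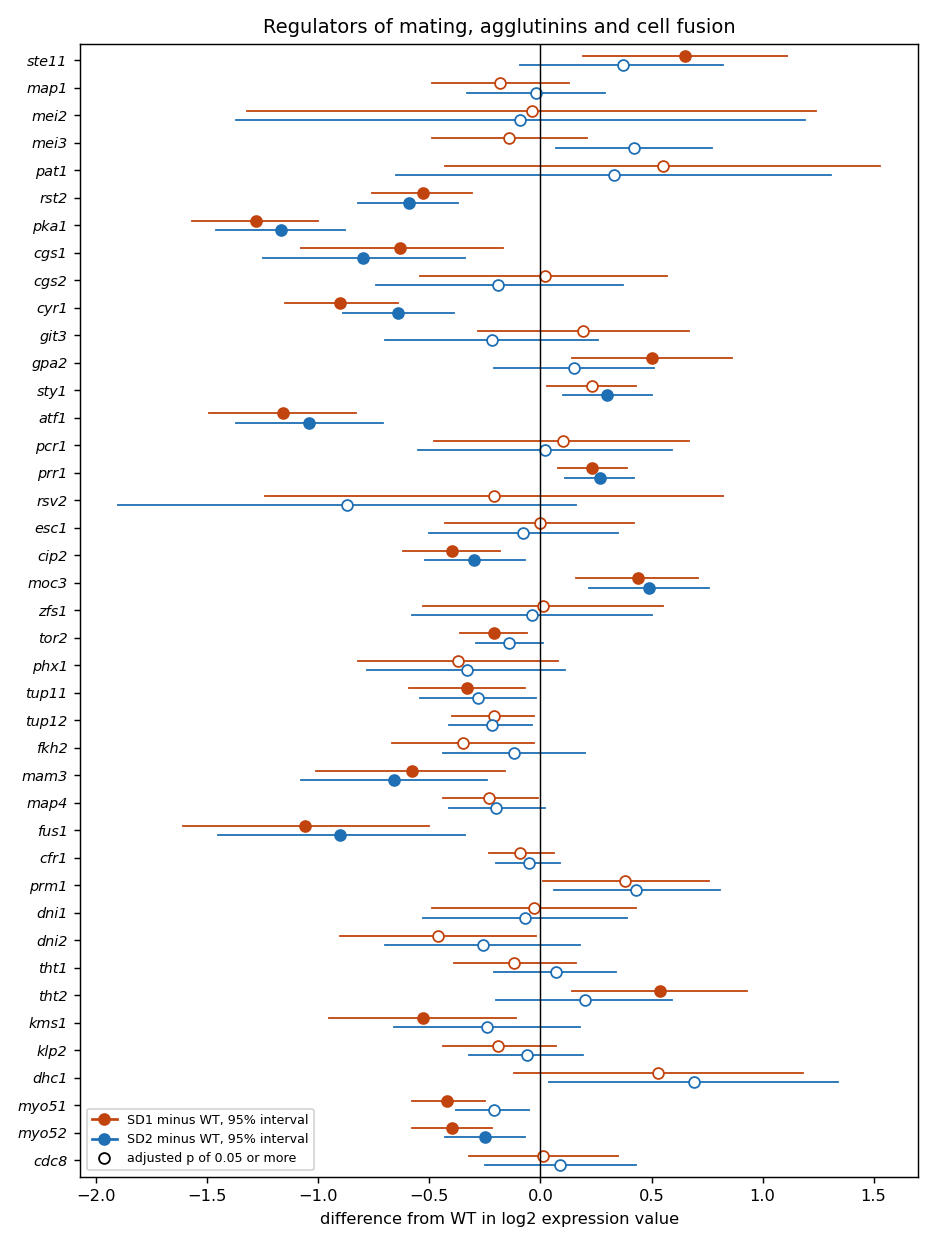
Difference from WT in log2 expression value (horizontal axis) in SD1 (orange) and SD2 (blue) for every measured regulator of mating, agglutinin and cell fusion gene, with limma 95% intervals and open circles where the adjusted p was 0.05 or more. Among these genes pka1, atf1 and fus1 lie farthest below 0 in SD1, at -1.28, -1.16 and -1.06, and in SD1 ste11 lies farthest above 0, at 0.65.

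The M and P genes were also counted as markers of the mating types. Of 7 measured M markers (mfm1, mfm2, mfm3, mam1, mam2, mam3 and sxa2) 6 fell in SD1 and 3 in SD2, all 7 estimates were below 0 in both, and the medians were -0.81 and -0.58. Of 5 measured P markers (map1, map2, map3, map4 and sxa1) 1 rose and 1 fell in each deletion, with medians of -0.18 and -0.02. Beside these counts, 19.5% of all probe sets were called higher and 23.7% lower in SD1, and 17.6% and 14.3% in SD2. The calls on mfm1, mfm2, mfm3, mam1, mam2, mam3, map2 and sxa1 are those already given, so the counts add no separate evidence. The log2 of the summed level of the M markers was 12.81 to 13.60 in WT, 11.71 to 12.38 in SD1 and 12.19 to 12.98 in SD2. For the P markers it was 12.61 to 12.83, 12.23 to 12.32 and 12.45 to 12.54, a sum in which sxa1 alone read 11.78 to 12.52. None of the 12 genes lay at or below background on all arrays. From 97.6% to 98.9% of all S. pombe probe sets lay above background on each array. Passing that level therefore says little about whether markers of both types were expressed.

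Markers of other cell states were counted in the same way. Of 10 measured markers of nitrogen-starved cells 4 rose and 2 fell in SD1 and 3 rose and 2 fell in SD2, with medians of 0.16 and 0.28. Of 18 markers of meiotic cells and spores 4 rose and 3 fell in SD1 and 6 rose and 1 fell in SD2, with medians of 0.02 and 0.24. Of these, mei3 and spo4 lay at or below background on all 9 arrays. Over all probe sets 43.2% were called in SD1 and 31.9% in SD2, and the meiotic counts lie near these shares. The log2 of the summed level of the starvation markers was 14.33 to 14.97 in WT, 13.67 to 13.88 in SD1 and 13.78 to 13.90 in SD2. The sum is of linear values, and the invertase gene inv1 had the highest WT mean of the 10 (13.57, against 9.47 in SD1 and 8.97 in SD2). So the lower sum mostly reflects inv1 and is not a fall of the list. The genes fnx1, amt1 and amt2 rose in both deletions and ste11 in SD1, while isp6 and inv1 fell in both. For the meiotic markers the log2 of the summed level was 11.75 to 11.88, 11.97 to 12.06 and 12.08 to 12.12. The part of these markers in the results on the 8 genes was not tested.

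The profiles of the 8 genes over the 9 arrays were also set against each other. The values of mfm1 and mam1 ran most alike of the pairs named here (Pearson's r = 0.97), the 2 probe sets of mfm1 gave 0.95, and mfm2 correlated at 0.87 with mfm1 and 0.76 with mam1. The gene ste7 correlated at 0.83 with mam1 and 0.84 with mam3. Against map2 the correlations were -0.96 for mam1, -0.93 for ste7 and -0.88 for mfm1. All 9 points share the strain differences and the array numbers, so these values describe the profiles already given.

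The genes whose 9 values most resembled those of the members were found by Pearson's correlation over the 9 arrays. Closest to the mean of mfm1, mfm2 and mam1 were the protein kinase gene ppk15 (r = 0.991), ppr2 (0.985), the arginase gene car1 (0.983), the glutathione peroxidase gene gpx1 (0.978) and the co-chaperone gene sti1 (0.978), of 714 candidates. Each was highest in WT and lowest in SD1, as in ppk15 with means of 11.82, 10.86 and 11.32 in WT, SD1 and SD2. That order follows from choosing them by likeness to the profile and is no separate result. Closest to map2 were the copper chaperone gene atx1 (0.996), ras1 (0.996) and the pyrimidine synthesis gene ura1 (0.995), with atx1 at 9.94, 11.18 and 10.94. Closest to mam3 were the sugar transporter gene sut1 (0.957), mcs6 (0.949) and apc10 (0.941). Of these, apc10 passed in neither deletion (limma adjusted p = 0.0658 in SD1 and 0.0753 in SD2).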

How the data were processed

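Labelled cRNA from 9 cultures was hybridised to Affymetrix arrays, 3 for each of WT, SD1 and SD2. The deposited table holds a log2 expression value for each probe set on each array. The authors made them with RMA and Partek, per the submitters' processing notes; versions, settings and joint normalization are not given in the sources used here. Labelling started from 500 ng of total RNA. Precision is limited by the 3 arrays of a strain, and the p-values measure the spread between cultures labelled as biological replicates. Without the replicate block that spread also holds what same-numbered arrays share.

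Probe sets were named from the platform annotation, with symbols updated by gene number to ASM294v3. A gene with several probe sets is represented in list counts by the brightest. No low-value filter was applied, and 8 of 9 probe sets of the 8 genes were above background on all arrays.

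The comparisons used limma 3.58.1 under R 4.3.3, in which lmFit estimated the 3 strain means from all 9 arrays and eBayes moderated the variances. The fit was tested on simulated arrays first. P-values were adjusted after Benjamini and Hochberg over 2937 S. pombe probe sets, and a call is an adjusted p under 0.05. Deviations from the strain means correlated between same-numbered arrays at 0.283 to 0.85 for WT and SD1 and 0.134 to 0.871 for SD1 and SD2. For WT and SD2 the range was -0.103 to 0.791. Pairs of different number ran from -0.868 to 0.751. Only the pairs of number 1, at 0.791 to 0.871, all lay above that range. Because same-numbered arrays also shared equal values, a fit with the array number as a block is given where it changed a call on the 8 genes. Among the further genes it is given for ste11 and myo51, and other changed calls are only counted. Named genes were the 8 members, fixed key genes and up to 6 called genes with the largest change per list, and the genes most alike in profile among those varying at least 0.5 times as much. The members and gene lists were chosen with earlier results of these data known.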

Additional observations from a re-analysis of the deposited data

How the results depend on the processing

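Alternatives were the replicate block, median centring, quantile normalization, an intensity trend, only the strains compared, all probe sets tested, only probe sets above background, and each array left out in turn. The calls on mam1, map2, ste7 and the plain mfm1 probe set in SD1 held under all of these, as did those on mam1, map2 and ste7 in SD2. With the replicate block the probe sets called in SD2 against WT rose from 937 to 1458 (lower: 419 to 694), and those between the deletions from 5 to 25 (16 higher, 9 lower). The block also called mfm1's x-marked probe set in SD2 (-0.58), mfm2 in SD2 (-0.58) and in the mean of both deletions (-0.97), and map4 in SD1 (-0.23) and in the mean (-0.21). Quantile normalization ended the SD2 call on mfm1 (-0.64) and made one on mfm2 in the mean (-0.98). Testing all probe sets ended the SD1 calls on mfm2 (-1.35) and mam3 (-0.58). Apart from the adjustment over more probe sets, the cause was not tested.

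With single arrays left out, the count lower in SD2 ran from 261 to 486. Between the deletions the calls ran from 4 to 10 (1 to 3 higher, 3 to 7 lower). The mfm2 change ran from -1.73 to -1.02 in SD1 and from -1.21 to -0.64 in the mean. That of mam3 ran from -0.71 to -0.38 in SD1, from -0.78 to -0.52 in SD2, from -0.69 to -0.52 in the mean and from -0.28 to 0.06 between the deletions. For mam4 it ran from -0.07 to 0.11 in SD1 and -0.01 to 0.17 in the mean, and for map4 from -0.27 to -0.16 in the mean and -0.05 to 0.10 between the deletions. Among values near 0, map4 between the deletions turned to -0.01 with median centring and with quantile normalization, map3 in SD1 to 0.04 with both, and tht2 in SD2 to -0.01 with quantile normalization. With single arrays left out map3 ran from -0.09 to 0.06 in SD1 and -0.03 to 0.16 in SD2, map1 in SD2 from -0.10 to 0.12, and the mfm3 probe sets in SD2 from -0.06 to 0.23 and -0.35 to 0.01. Values of map2 in WT lie near background, which limits how low a level could be measured. Among the further named genes, leaving out single arrays ended calls 67 times over 18 results and made 6 over 3 results. Counting also the calls on mam1, mfm1 and mfm2 between the deletions, the block made 7 further calls and ended none. Testing all probe sets ended 9 calls on the further named genes.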

Other observations

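Genes of mating-type silencing and switching, which keep the silent mating-type cassettes off and move them into the expressed locus, were not among the 8 genes. Of 23 listed genes 22 were measured, and 4 rose and 6 fell in SD1 and 3 rose and 4 fell in SD2, with medians of -0.04 and 0.00. Over all probe sets 43.2% and 31.9% were called. The heterochromatin protein genes chp1 and chp2, named after their values were seen, rose by 0.75 ± 0.18 and 0.73 ± 0.084 in SD1 (SE, n = 3 each, limma adjusted p = 0.00932 and 0.000283) and by 0.82 ± 0.18 and 0.58 ± 0.084 in SD2 (0.00873 and 0.00142). The switching gene swi2 fell by 0.92 ± 0.10 and 0.68 ± 0.10 (0.00023 and 0.00156), and rhp6, a ubiquitin-conjugating enzyme gene linked to silencing, fell by 0.66 ± 0.075 and 0.38 ± 0.075 (0.000261 and 0.00605).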
